A study of Homo sapiens with 6 samples.

Results

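Kinesin and dynein motor genes were followed by RNA sequencing in the neuroblastoma line SK-N-BE(2), an established line of human tumour cells. Members were taken by gene name, as every row named KIF or KIFC plus a number, DYNC plus a number, or DYNL, which gave 61 of 19937 gene rows. The study compared 3 libraries titled sgcon, the control guide, with 3 titled sgGPR91, the guide against GPR91, the succinate receptor encoded by SUCNR1. Per the labels, all 6 libraries came from cells exposed to doxorubicin for 48 hours, at 100 nmol/L in one field and, written as DOX, at 1.5 µg/ml in another. All groups share this exposure. The genotype tags contradict the titles: the sgcon libraries carry the knockout tag and the sgGPR91 libraries the control tag. Groups follow the titles, so "higher" means higher in libraries titled sgGPR91, and each direction would be the opposite if the tags held instead. The labels do not say whether cells were a clone or a pool, or whether replicates were separate cultures, so the p-values rest on a library-to-library spread that may be only technical.

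Kinesins and cytoplasmic dynein are ATP-driven motors that walk along microtubules, most kinesins toward the plus end and dynein toward the minus end. In dividing cells one set of kinesins builds the spindle, moves chromosomes and carries out cytokinesis. In neurons and neuron-like cells another set carries vesicles, mitochondria and cytoskeletal cargo out along axons, and dynein carries cargo back to the cell body. The 61 genes were sorted by these roles into 14 mitotic motors, 13 axonal transport kinesins, 5 subunits of cytoplasmic dynein-1, 10 dynein light chains, 10 ciliary motors and 9 other kinesins.

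Most of the mitotic motors shared a promoter feature. The sorting by role did not use it, but it is known from genes of late cell cycle phases, so it is not independent of that role. The cell cycle genes homology region (CHR) is a short element, TTTGAA or TTTAAA, through which the DREAM and MuvB complexes control genes of late cell cycle phases, often downstream of a CCAAT box. RefSeq start sites (GRCh38.p14) were found for 51 of the 61 genes, each with a 300-base window from 250 bases before to 50 bases after the start. Both CHR forms and CCAAT were searched on both strands. TTTAAA reads the same on both strands, and a CHR match can share at most 1 letter with a CCAAT match. CHR letters were present in 12 of 14 mitotic motor genes (85.7%), in 1 of 10 axonal transport kinesins and in 0 of 5 dynein-1 subunits, against 27.9% of all 27305 genes in the promoter table and 21.5% of the 10264 genes that were both tested here and listed there. The 12 include KIF4B, a near-identical copy of KIF4A that had at most 3 reads in a library, so these matches are not all independent. CHR and CCAAT letters occurred together in 10 mitotic motors (71.4%) and in 9.20% of the tested genes. The median GC content of the windows was 62.0% for mitotic motors, 71.3% for axonal kinesins and 64.7% for tested genes, and its part in these shares was not tested. Such a match is a description of letters, and does not show that a factor binds there.

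Promoter stretches from 120 bases before to 10 bases after the start are shown for 7 mitotic motors, 5′ to 3′ on the gene's own strand, because they show where the CHR and CCAAT letters lie. Capitals mark the CHR letters and the CCAAT letters, each as read on either strand.
KIF18A (chr11:28108147-28108276, minus strand): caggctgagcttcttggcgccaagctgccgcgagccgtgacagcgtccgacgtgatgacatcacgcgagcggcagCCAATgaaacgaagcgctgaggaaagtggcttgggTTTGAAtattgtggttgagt
KIF2C (chr1:44739717-44739846, plus strand): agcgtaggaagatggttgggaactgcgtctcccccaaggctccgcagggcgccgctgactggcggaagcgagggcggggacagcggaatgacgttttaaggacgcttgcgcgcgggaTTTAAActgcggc
KIF11 (chr10:92593010-92593139, plus strand): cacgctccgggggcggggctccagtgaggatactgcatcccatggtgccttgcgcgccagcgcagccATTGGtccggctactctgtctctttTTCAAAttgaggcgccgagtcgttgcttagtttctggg
KIF20A (chr5:138178992-138179121, plus strand): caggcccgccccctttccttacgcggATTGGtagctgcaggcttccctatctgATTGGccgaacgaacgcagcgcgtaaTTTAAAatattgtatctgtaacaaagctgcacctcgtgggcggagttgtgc
KIF4A (chrX:70289984-70290113, plus strand): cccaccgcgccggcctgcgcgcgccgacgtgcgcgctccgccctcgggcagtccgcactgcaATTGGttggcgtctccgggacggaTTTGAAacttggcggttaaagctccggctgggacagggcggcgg
KIF15 (chr3:44761674-44761803, plus strand): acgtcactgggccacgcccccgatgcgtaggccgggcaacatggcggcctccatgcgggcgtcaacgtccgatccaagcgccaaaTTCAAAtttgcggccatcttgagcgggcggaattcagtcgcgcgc
KIF22 (chr16:29790631-29790760, plus strand): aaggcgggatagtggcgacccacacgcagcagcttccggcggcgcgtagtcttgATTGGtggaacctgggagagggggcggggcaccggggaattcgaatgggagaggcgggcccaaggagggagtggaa
In KIF11, KIF18A, KIF4A and KIF20A the CHR letters stood downstream of CCAAT letters and began at -28, -10, -34 and -41 from the start. KIF2C and KIF15 held CHR letters, beginning at -3 and -35, and no CCAAT letters. KIF22, shown at 1 of its 2 RefSeq starts, held CCAAT letters only, and KIF2B held neither. Among the 12 genes with CHR letters, each had a match that began between -55 (KIF23) and 25 (KIF20B). The same stretch of the neuronal kinesin KIF5C, the kinesin-2 subunit KIF3A and the dynein subunit DYNC1I1 is shown for comparison. These genes were picked because they rose in the libraries labelled sgGPR91 and held neither motif in it. KIF5C, shown at 1 of its 2 RefSeq starts, held CCAAT letters farther upstream, at -222. KIF3B and DYNLL1, also called higher, held CCAAT letters at -78 and at -119 and -88. A link between the motifs and the direction of change was not tested.
KIF5C (chr2:148875107-148875236, plus strand): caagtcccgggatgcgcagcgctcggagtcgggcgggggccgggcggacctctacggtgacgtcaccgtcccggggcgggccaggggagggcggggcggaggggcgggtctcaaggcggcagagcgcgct
KIF3A (chr5:132737537-132737666, minus strand): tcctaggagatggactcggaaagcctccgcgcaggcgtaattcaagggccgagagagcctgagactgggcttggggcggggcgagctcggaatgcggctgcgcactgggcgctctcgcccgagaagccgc
DYNC1I1 (chr7:95772434-95772563, plus strand): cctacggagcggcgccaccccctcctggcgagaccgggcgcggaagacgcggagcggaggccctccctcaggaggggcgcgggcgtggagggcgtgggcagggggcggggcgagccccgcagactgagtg
The single axonal kinesin with CHR letters was KIF5B, where they began at -140.

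SUCNR1 itself gave no check of the labels, with 1, 0 and 2 reads in the sgcon libraries and 1, 0 and 0 in the sgGPR91 libraries (p = 0.7 by an exact permutation test on log2(CPM + 1), two-sided, whose smallest possible p with 3 against 3 is 0.1). Total counts ran from 7070189 to 10252425 per library, so a floor of 3 reads was 0.293 to 0.424 CPM (counts scaled to the size of the library). The 9 adrenergic neuroblastoma markers were all expressed, at 14.7 to 1098 FPKM (counts scaled to gene length and library size). Their summed level was 2089 to 2258 FPKM in sgcon and 1457 to 1553 FPKM in sgGPR91. By the edgeR test given below, 8 of the 9 were called lower, where 21.0% of all genes tested were. Of the marker lists for other cells, immune (6 genes, 3 of them at 0 in every library), epithelial (5 genes) and endothelial (4 genes) markers summed to at most 7.38 FPKM in any library; the immune sum was 0.341 to 0.772 FPKM in sgcon and 1.02 to 1.52 FPKM in sgGPR91. The part of these shifts in the motor results was not tested. The 10 Schwann and mesenchymal markers summed to 202.5 to 216.2 FPKM in sgcon and 207.4 to 210.6 FPKM in sgGPR91. In bulk libraries, fewer cells of a type and less RNA per cell cannot be told apart, and this holds for every result on mitotic genes below.

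Of the 61 motor genes, 51 had enough reads to be tested. By edgeR's quasi-likelihood test at a Benjamini-Hochberg adjusted p under 0.05 over all 12701 genes tested, 17 of the 51 (33.3%) were called, 11 higher and 6 lower in sgGPR91, where 41.1% of all genes were called, 20.2% higher and 21.0% lower. The alternatives quoted below called 36.6% of all genes with DESeq2, 32.9% without the filter, 44.6% with a replicate block, 40.5% without a scaling factor, 41.1% with RLE size factors and 38.2% and 38.1% with limma on log2(FPKM + 1) and log2(FPKM + 0.1). Leaving out sgcon replicate 1, 2 or 3 called 38.9, 33.2 and 44.3%, and leaving out sgGPR91 replicate 1, 2 or 3 called 33.0, 33.9 and 31.9%. The share of motors called was below that of all genes, and this difference was not tested. Their median absolute log2 fold change was 0.16, against 0.25 for all genes, and 1 of them (DYNC1I1) was called with at least a 2-fold difference, where 7.00% of all genes were. The groups did not overlap in TMM-scaled CPM for 26 of the 51, where 50.9% of all genes showed this, and all 17 called genes were among the 26.

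**Figure D1:**
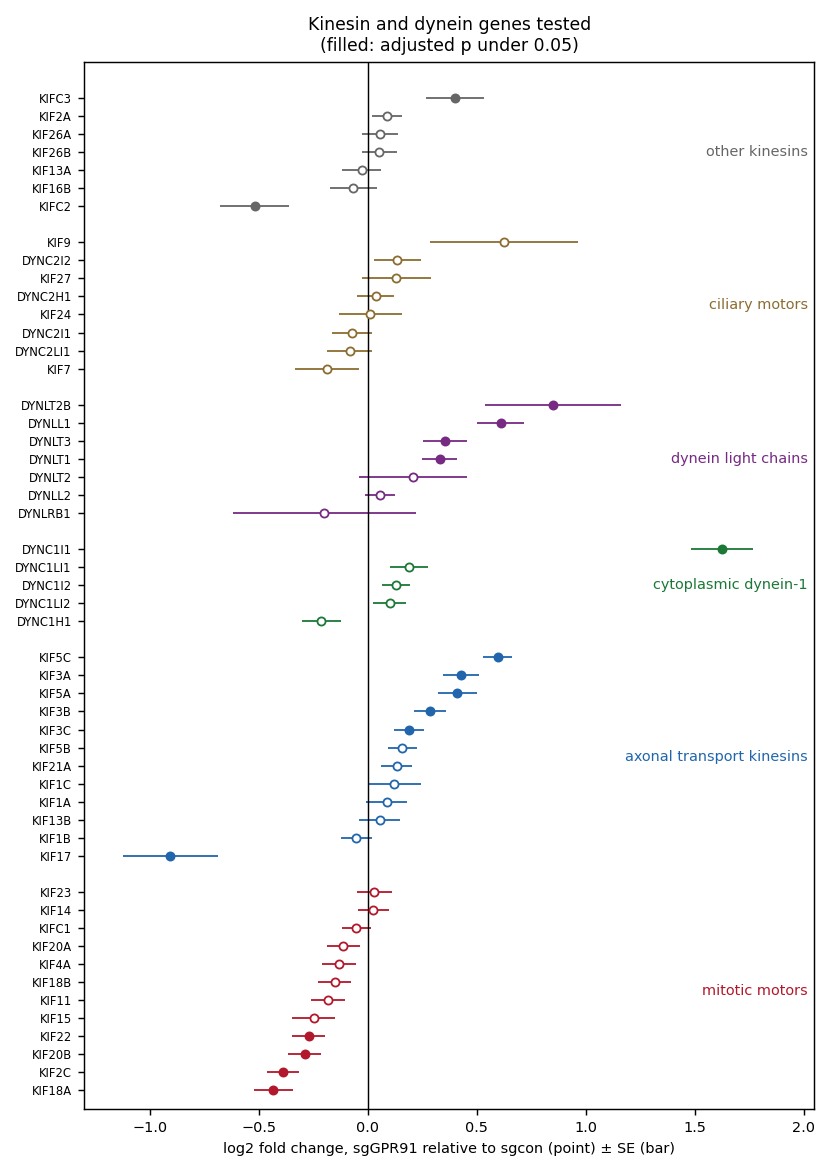
Log2 fold change of sgGPR91 relative to sgcon (x axis, point) ± SE (bar) for the 51 tested motor genes, grouped by role; filled points passed edgeR's test. The 4 called mitotic motors lie left of 0, the called light chains and 5 of 6 called axonal kinesins lie right of it, and DYNC1I1 lies farthest from 0.

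The mitotic and axonal sets leaned to opposite sides. Among 12 mitotic motors tested, 0 were called higher and 4 lower (33.3%, beside 21.0% of all genes called lower), and 10 of the 12 had a negative log2 fold change, with a median of -0.17. Among 12 axonal transport kinesins tested, 5 were called higher and 1 lower (5 of 12 beside 20.2% of all genes called higher), and 10 of the 12 had a positive log2 fold change, with a median of 0.15. The median over all genes tested was -0.01, and 49.4% of them were positive. Summed over members, the mitotic motors were at 1.28, 1.23 and 1.15 times the FPKM of the axonal kinesins in sgcon replicates 1, 2 and 3. That ratio was 0.969, 0.966 and 0.951 in the sgGPR91 libraries, all below the sgcon libraries. The ratio rests on the deposited gene lengths. For KIF5A and KIF5C these were 12245 and 33151 bases, against 6261 and 9215 exon bases in GENCODE version 29. Its level therefore depends on the lengths used. The axonal set also holds KIF17, known mainly from dendrites and cilia, and KIF21A, which slows microtubule growth at the cell edge. KIF21A gave 73.6, 70.0 and 71.8 of the set's 230.0, 234.7 and 246.1 FPKM in sgcon replicates 1, 2 and 3. No test of the difference between the sets was made, since their members were chosen with earlier results of these data known.

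**Figure D2:**
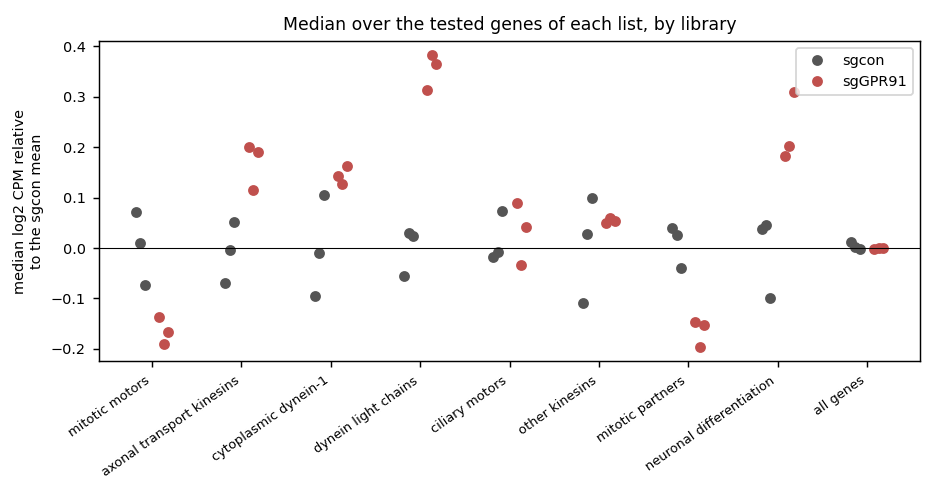
Median log2 CPM of the tested genes of each list relative to the sgcon mean (y axis), 1 point per library. All sgGPR91 libraries lie below all sgcon libraries for mitotic motors and their partners. They lie above them for axonal kinesins, dynein-1, dynein light chains and neuronal differentiation genes. The sgcon library nearest to them is at -0.07 for mitotic and 0.05 for axonal motors.

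The 12 mitotic motors tested ran from 9.03 FPKM for KIF15 to 39.9 FPKM for KIF2C as sgcon means, with a median of 22.0 FPKM, while KIF2B and KIF4B were at 0 and 0.0389 FPKM. KIF18A (ENSG00000121621, chromosome 11, 28020619 to 28108156, minus strand), a kinesin-8 that dampens chromosome movements at the metaphase plate, was at 65.0, 58.4 and 58.5 CPM in sgcon and 43.9, 48.9 and 42.0 CPM in sgGPR91. The groups did not overlap, and the log2 fold change was -0.43 ± 0.09 (SE; edgeR adjusted p = 0.000948). KIF2C (ENSG00000142945, chromosome 1, 44739818 to 44767767, plus strand), the kinesin-13 also known as MCAK, which depolymerises microtubules at centromeres to correct faulty attachments, was at 156, 149 and 134 CPM in sgcon and 113, 116 and 106 CPM in sgGPR91. It fell 1.31-fold (log2 fold change -0.39 ± 0.07, edgeR adjusted p = 0.000551), with every sgGPR91 library below every sgcon library.

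KIF20B (ENSG00000138182, chromosome 10, 89701590 to 89774939, plus strand), a kinesin-6 of the late stages of cytokinesis, was at 101, 101 and 98.4 CPM in sgcon and 78.7, 89.7 and 77.9 CPM in sgGPR91. Its sgcon libraries were close together and all above the sgGPR91 libraries (log2 fold change -0.29 ± 0.08, edgeR adjusted p = 0.00606). KIF22 (ENSG00000079616, chromosome 16, 29790719 to 29805384, plus strand), a chromokinesin also known as Kid that pushes chromosome arms away from the poles, was at 120, 113 and 103 CPM in sgcon and 92.3, 92.1 and 93.9 CPM in sgGPR91 (log2 fold change -0.27 ± 0.07, edgeR adjusted p = 0.00748). Of the exon bases of KIF22 in GENCODE version 29, 13% lie opposite a gene on the other strand, and the counting is not stated to use strand.

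The other 8 mitotic motors tested did not pass. KIF15, a kinesin-12 that supports bipolar spindles, and KIF11, the kinesin-5 also known as Eg5 that pushes spindle poles apart, had log2 fold changes of -0.25 ± 0.10 and -0.18 ± 0.08, with edgeR adjusted p-values of 0.0543 and 0.0706. Their groups did not overlap, at 43.4 to 52.9 against 36.7 to 43.1 CPM for KIF15 and 170 to 211 against 165 to 169 CPM for KIF11. Both passed without sgcon replicate 3 (adjusted p = 0.0141 for KIF15 and 0.00414 for KIF11), which was the sgcon library with the lowest median of mitotic motors, and KIF15 also passed with no filter on low counts (0.0474). KIF18B, a kinesin-8 of astral microtubules, passed without sgcon replicate 1 (adjusted p = 0.0207). The motors of the central spindle and cytokinesis, KIF20A, KIF23 and KIF14, had log2 fold changes of -0.11 ± 0.08, 0.03 ± 0.08 and 0.03 ± 0.07. KIFC1, a minus-end-directed kinesin-14 that clusters spindle poles, was at 112 to 114 CPM in sgcon and 106 to 112 CPM in sgGPR91. The chromokinesin KIF4A was at 77.0 to 88.7 and 73.0 to 80.1 CPM. KIF4B, a near-identical copy of KIF4A with which reads could be shared, had at most 3 reads in a library, and KIF2B had 0 reads in all of them. No mitotic motor was higher by edgeR even at an unadjusted p under 0.05, and DESeq2 called 0 higher and 4 lower.

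Genes that work with the mitotic motors leaned the same way. Of 26 mitotic partner genes, all tested, 10 were lower, 2 higher and 14 not called (21.0% of all genes were called lower), with a median log2 fold change of -0.17. CENPE, the kinesin-7 of kinetochores whose name the selection rule did not match, fell 1.39-fold from 168.2 ± 7.76 to 121.0 ± 9.06 CPM (SD, n = 3 per group). BIRC5 and INCENP, both subunits of the chromosomal passenger complex, fell 1.33-fold and 1.25-fold, while MYBL2, a transcription factor gene that acts through the CHR, rose from 102.7 ± 2.80 to 130.9 ± 3.99 CPM. Tested genes that start within 5 Mb of CENPE and of BIRC5 had median log2 fold changes of -0.41 and -0.31, the side of both genes' own change. CHR letters were present in 17 of the 21 partner genes with a promoter window (81.0%).

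The 12 axonal transport kinesins tested ran from 1.92 FPKM for KIF17 to 71.8 FPKM for KIF21A as sgcon means, and the untested KIF21B was at 0.0372 FPKM. The kinesin-1 heavy chains carry mitochondria, vesicle proteins and neurofilaments, with KIF5A and KIF5C largely neuronal and KIF5B found in most cells. KIF5C (ENSG00000168280, chromosome 2, 148875227 to 149026759, plus strand) was at 198, 198 and 215 CPM in sgcon and 300, 314 and 308 CPM in sgGPR91. It rose 1.51-fold, with the groups far apart relative to their spread (log2 fold change 0.60 ± 0.07, edgeR adjusted p = 3.623e-06). KIF5A (ENSG00000155980, chromosome 12, 57546026 to 57586633, plus strand) was at 122, 130 and 158 CPM in sgcon and 172, 193 and 179 CPM in sgGPR91. Its log2 fold change was 0.41 ± 0.09 (edgeR adjusted p = 0.00136), and sgcon replicate 3 lay nearest to the sgGPR91 libraries. KIF5B was at 324, 319 and 311 CPM in sgcon and 357, 342 and 365 CPM in sgGPR91, with no overlap, but its log2 fold change of 0.16 ± 0.07 did not pass (edgeR adjusted p = 0.0661). The KIF5B call was made without a scaling factor and by limma on log2(FPKM + 1) and log2(FPKM + 0.1), with adjusted p-values of 0.0405, 0.032 and 0.0341.

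The order of the 3 kinesin-1 genes per length depended on the gene length used. With the deposited lengths of 5866, 12245 and 33151 bases, KIF5B, KIF5A and KIF5C were at 54.0, 11.1 and 6.12 FPKM in sgcon. Their exons in GENCODE version 29 cover 5877, 6261 and 9215 bases. Per these lengths KIF5B was at 53.9 ± 0.346, KIF5A at 21.8 ± 3.48 and KIF5C at 22.0 ± 1.53 FPKM in sgcon (SD, n = 3), so that KIF5A and KIF5C no longer differed beyond their spread. Of the 61 motor genes, 6 had a listed length over 1.5 times their GENCODE version 29 exon length. Fold changes of single genes between groups are not touched by this, but FPKM summed over genes is.

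All heavy chains of the kinesin-2 family's heterotrimer rose. KIF3A pairs with KIF3B or KIF3C to carry vesicles in axons and, with KIF3B, cargo into cilia. KIF3A (ENSG00000131437, chromosome 5, 132692628 to 132737638, minus strand) was at 58.8, 55.8 and 58.7 CPM in sgcon and 76.3, 85.4 and 71.5 CPM in sgGPR91, a log2 fold change of 0.43 ± 0.08 (edgeR adjusted p = 0.000638). KIF3B went from 78.1, 79.1 and 74.4 CPM to 98.8, 94.2 and 89.3 CPM (log2 fold change 0.28 ± 0.07, edgeR adjusted p = 0.00537). Neither pair of groups overlapped. KIF3C, the neuron-enriched partner, was at 166, 185 and 175 CPM and at 206, 191 and 202 CPM (log2 fold change 0.19 ± 0.07, edgeR adjusted p = 0.0379), the smallest called rise among the motors. The KIF3C call was lost with no filter on low counts (adjusted p = 0.0548) and without sgcon replicate 1 or any single sgGPR91 replicate (adjusted p = 0.0505 to 0.131). The accessory subunit gene KIFAP3, added after its values were seen, had a log2 fold change of 0.18 ± 0.08 and did not pass (edgeR adjusted p = 0.0912).

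KIF17, a homodimeric kinesin-2 known mainly from dendrites and cilia, went the other way. It was at 7.16, 10.8 and 7.91 CPM in sgcon and 4.31, 4.96 and 4.60 CPM in sgGPR91, resting on 57 to 109 and 38 to 41 reads. The groups did not overlap, and the log2 fold change of -0.91 ± 0.22 (edgeR adjusted p = 0.0033) was the largest fall among the motors tested.

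The kinesin-3 motors and KIF21A did not pass. KIF1A, which carries synaptic vesicle precursors and dense-core vesicles, was at 294, 350 and 405 CPM in sgcon and 375, 355 and 382 CPM in sgGPR91, and its sgcon libraries spread around the sgGPR91 ones. It was called without sgcon replicate 3 (log2 fold change 0.20, adjusted p = 0.0259) and turned to -0.03 without sgcon replicate 1. KIF1B, which carries mitochondria and synaptic vesicle precursors, had a log2 fold change of -0.05 ± 0.07. KIF1C and KIF13B, kinesin-3 motors of vesicles, had values of 0.12 ± 0.12 and 0.06 ± 0.09. KIF21A, which slows microtubule growth at the cell edge, had the highest FPKM of all tested motors in sgcon and was at 712 to 757 CPM there against 788 to 816 CPM in sgGPR91 (log2 fold change 0.13 ± 0.07, edgeR adjusted p = 0.143). Its close relative KIF21B had at most 7 reads in a library and was not tested.

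**Figure D3:**
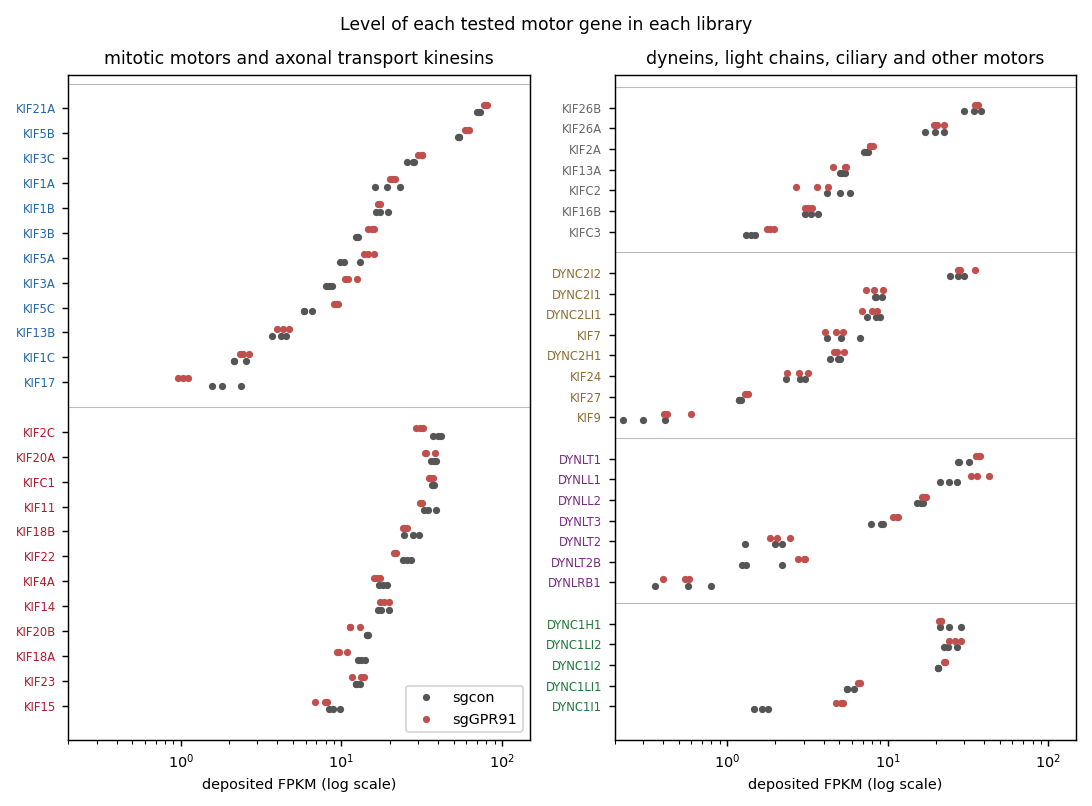
Deposited FPKM (x axis, log scale) of each tested motor gene, 1 point per library, sgcon in grey and sgGPR91 in red, with names coloured by role: red mitotic, blue axonal, green dynein-1, purple light chains, brown ciliary and grey other. KIF21A has the highest sgcon level, and DYNC1I1 shows a clear gap between groups.

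Of the 5 cytoplasmic dynein-1 genes, 1 was called higher (20.0%), near the 20.2% of all genes called higher. DYNC1I1 (ENSG00000158560, chromosome 7, 95772506 to 96110322, plus strand), the intermediate chain found largely in neurons, was at 6.82, 7.62 and 8.05 CPM in sgcon and 24.2, 23.4 and 21.7 CPM in sgGPR91. It rose 3.08-fold (log2 fold change 1.63 ± 0.14, edgeR adjusted p = 2.146e-07), the largest difference among the 51 motors tested. Its partner isoform DYNC1I2, expressed in most cells, was at 135.7, 134.3 and 129.6 CPM and at 147.1, 145.5 and 144.3 CPM, without overlap, and did not pass (log2 fold change 0.13 ± 0.06, edgeR adjusted p = 0.122). Per listed length, DYNC1I1 made up 6.61, 7.39 and 8.04% of the FPKM of both intermediate chains in sgcon and 18.8, 18.4 and 17.5% in sgGPR91. DYNC1I2 is listed at 6433 bases, against 4695 exon bases in GENCODE version 29, so these shares depend on the lengths used. By reads, the shares were 4.79, 5.37 and 5.85% in sgcon and 14.1, 13.8 and 13.1% in sgGPR91. The 83 tested genes that start within 5 Mb of DYNC1I1 had a median log2 fold change of -0.06.

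The catalytic heavy chain DYNC1H1 was at 839.9, 950.1 and 1096 CPM in sgcon and 839.8, 811.1 and 837.9 CPM in sgGPR91, so that the lowest sgcon and the highest sgGPR91 library were nearly equal. Its log2 fold change of -0.21 ± 0.09 did not pass (edgeR adjusted p = 0.0661), but was called by DESeq2 (adjusted p = 0.0452), with no filter (0.0384) and without sgcon replicate 1 (0.00658). Without sgcon replicate 3, the library with the highest level, the log2 fold change was -0.11 and did not pass. Genes listed at over 10000 bases had median log2 deviations from the sgcon mean of -0.025, -0.0085 and 0.042 in sgcon replicates 1, 2 and 3. In sgGPR91 replicates 1, 2 and 3 these were -0.076, -0.032 and -0.032. DYNC1H1 and KIF1A, listed at 38874 and 17879 bases, are among these genes. So are the axonal kinesins KIF5C, KIF5A, KIF1B, KIF13B and KIF21A, listed at 33151, 12245, 17955, 11113 and 10117 bases. The same holds for DYNC2H1, KIF2A, KIF13A and KIF26B. The part of this pattern in their values was not tested. The light intermediate chains DYNC1LI1 and DYNC1LI2, which hold the cargo adaptors, had log2 fold changes of 0.19 ± 0.09 and 0.10 ± 0.08 and did not pass.

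Dynein light chains are small dimers that bind the intermediate chains. Of 10, 7 were tested, and 4 were higher and 0 lower (4 of 7 beside 20.2% of all genes called higher). DYNLL1 (ENSG00000088986, chromosome 12, 120469850 to 120498493, plus strand), a hub protein that also works outside dynein, was at 81.0, 72.1 and 61.2 CPM in sgcon and 127, 104.8 and 96.0 CPM in sgGPR91. It rose 1.53-fold with no overlap (log2 fold change 0.61 ± 0.11, edgeR adjusted p = 0.000283), while its paralogue DYNLL2 was at 105.1 to 111.6 and 110.5 to 118.4 CPM and did not pass. GENCODE version 29 names 7 pseudogenes after DYNLL1, so its reads may be shared with such copies. DYNLT1, a Tctex-type chain, was at 96.2, 83.2 and 79.5 CPM in sgcon and 111, 104 and 111 CPM in sgGPR91 (log2 fold change 0.33 ± 0.08, edgeR adjusted p = 0.00348).

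DYNLT3, the other abundant Tctex-type chain, went from 29.9, 24.8 and 28.0 CPM to 34.2, 35.8 and 35.6 CPM (log2 fold change 0.36 ± 0.10, edgeR adjusted p = 0.0107). Its call was lost without sgcon replicate 2 (adjusted p = 0.0677). DYNLT2B, a chain of the ciliary dynein-2 complex, rested on 11 to 28 reads in sgcon and 29 to 34 in sgGPR91, at 1.68, 2.77 and 1.53 CPM against 3.86, 3.75 and 3.42 CPM. The call (log2 fold change 0.85 ± 0.31, edgeR adjusted p = 0.0385) was lost with DESeq2 (0.0705) and without any 1 library other than sgcon replicate 2 (0.0714 to 0.109), and 31.1% of its exon bases in GENCODE version 29 are shared with other genes on its strand. DYNLRB1, the roadblock chain, had only 8 to 20 reads in a library, and DYNLT2, a Tctex-type chain, had a log2 fold change of 0.21 ± 0.25; neither passed.

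**Figure D4:**
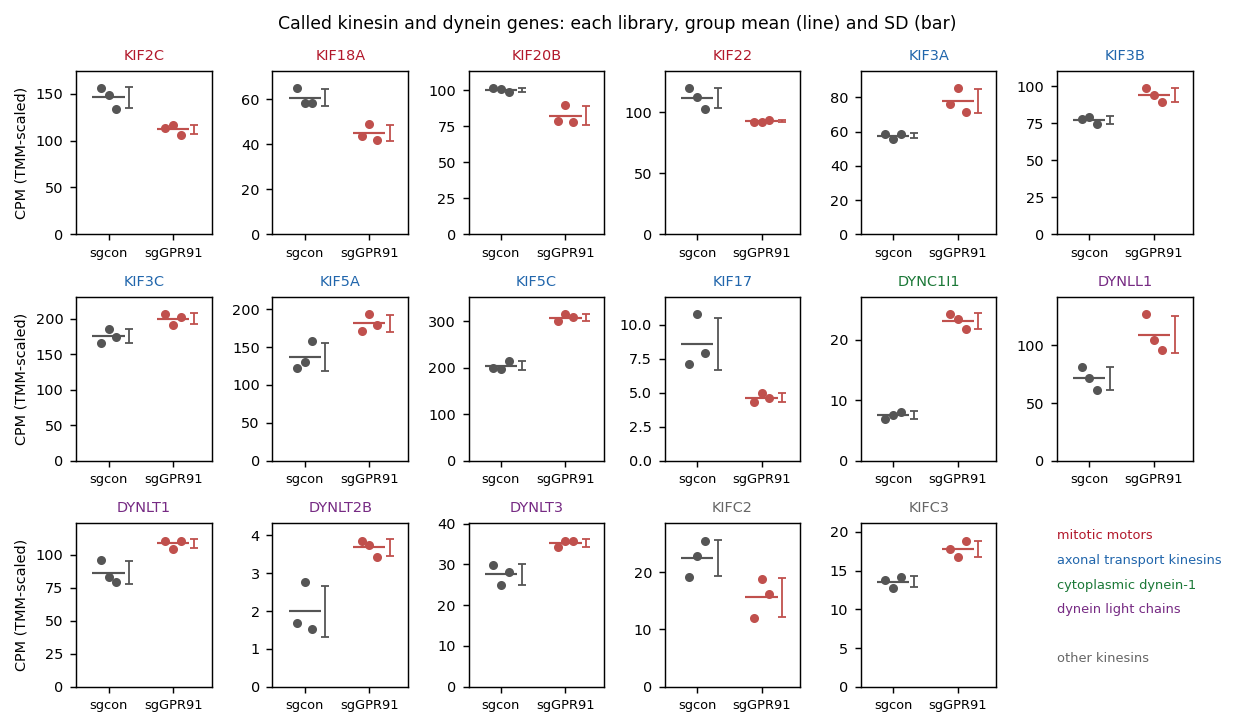
TMM-scaled CPM (y axes from 0) of the 17 called motor genes, 1 point per library, with the group mean (line) and SD (bar); gene names are coloured by role. In all 17 panels the points of the groups do not overlap, as for 50.9% of all genes tested. The panels were chosen by edgeR's test on the same libraries.

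Ciliary motors gave 0 calls among 8 tested by edgeR, where 41.1% of all genes were called, and 0 passed an unadjusted p under 0.05. The dynein-2 heavy chain DYNC2H1 was at 66.9 to 77.4 CPM in sgcon and 68.9 to 79.6 CPM in sgGPR91, and KIF7, a Hedgehog pathway regulator at the tip of cilia, at 22.6 to 35.1 and 21.3 to 27.7 CPM. DYNC2LI1, DYNC2I1 and DYNC2I2, further dynein-2 subunits, had log2 fold changes of -0.08, -0.07 and 0.14. When 1 library was left out these ran from -0.16 to -0.0065, from -0.16 to 0.0017 and from 0.0034 to 0.22. The groups did not overlap for KIF27 and, narrowly, for KIF9, both higher in sgGPR91. KIF9 had the largest log2 fold change of the ciliary motors, 0.62 ± 0.34, on 12 to 29 reads in a library, and KIF27 was at 9.29 to 9.40 and 9.91 to 10.4 CPM (0.13 ± 0.16). KIF24 had a log2 fold change of 0.01 ± 0.15. None of the 8 was called under any of the 13 alternatives run, DESeq2 among them.

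Among the other kinesins 1 of 7 tested rose and 1 fell, beside 20.2 and 21.0% of all genes, and both are kinesin-14 motors that walk to the minus end. KIFC3 (ENSG00000140859, chromosome 16, 57758217 to 57863053, minus strand), known from adherens junctions and the Golgi, was at 13.8, 12.8 and 14.1 CPM in sgcon and 17.8, 16.8 and 18.9 CPM in sgGPR91 (log2 fold change 0.40 ± 0.13, edgeR adjusted p = 0.023). The call was lost with DESeq2 (adjusted p = 0.0503), with limma on log2(FPKM + 0.1) (0.0581) and without sgcon replicate 2, sgGPR91 replicate 1 or sgGPR91 replicate 3 (0.0573 to 0.0974). KIFC2 (ENSG00000167702, chromosome 8, 144466043 to 144474202, plus strand) was at 19.1, 22.8 and 25.5 CPM and at 12.03, 18.8 and 16.2 CPM, with sgGPR91 replicate 2 just under the lowest sgcon library (log2 fold change -0.52 ± 0.16, edgeR adjusted p = 0.0159). Without sgcon replicate 2 or sgGPR91 replicate 1 it did not pass (0.0531 and 0.0935). Of its exon bases, 17.8% lie opposite FOXH1 on the other strand, so the doubt on strand given for KIF22 applies here too. KIF2A, a microtubule depolymerase of both spindle poles and axon branches, KIF13A and KIF16B, which move endosomes, and the atypical KIF26A and KIF26B had log2 fold changes between -0.07 and 0.09.

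The 10 motor genes that were not tested had at most 16 reads in any library and 0 to 54 reads over all libraries. They were KIF2B, KIF4B, KIF6, KIF12, KIF19, KIF21B, KIF25, DYNLRB2, DYNLT4 and DYNLT5, of which KIF2B and DYNLT5 had 0 reads in all 6 libraries. A difference in them was not detectable at these read numbers.

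The 17 called motors lay on 13 chromosomes, and the tested genes that start within 5 Mb of each, 15 to 103 genes per motor, had median log2 fold changes between -0.18 and 0.19. The sign of that median was the motor's own in 9 of the 17. For KIF18A the 15 neighbours had a median of -0.18, on the side of its own change of -0.43.

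Cofactors of the motors were called in both directions, where 41.1% of all genes were called, 20.2% higher and 21.0% lower. Of 12 genes of dynactin, the activator of dynein, and of the LIS1 group, 3 were higher, 3 lower and 6 not called. ACTR1A, the filament subunit of dynactin, rose from 98.5 ± 4.82 to 143.8 ± 8.44 CPM and DCTN5 from 111.1 ± 8.21 to 137.0 ± 5.71 CPM. DCTN3, the shoulder subunit p24, fell from 44.7 ± 5.54 to 32.4 ± 5.62 CPM, and NDEL1, which loads LIS1 onto dynein, rose from 25.8 ± 2.96 to 32.9 ± 1.46 CPM, a call lost without sgcon replicate 2 or sgGPR91 replicate 1 (adjusted p = 0.0613 and 0.0549). Of 14 dynein adaptors, 10 were tested and 2 were lower (20.0%, beside 21.0% of all genes), BICD1 (log2 fold change -0.35 ± 0.08) and NINL (-0.30 ± 0.09), the NINL call being lost without sgcon replicate 2, sgGPR91 replicate 1 or sgGPR91 replicate 2 (adjusted p = 0.0541 to 0.072).

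Of 24 kinesin light chains and cargo adaptors, 23 were tested, and 4 were higher, 6 lower and 13 not called (43.5% called, beside 41.1% of all genes). FEZ1, an adaptor that links kinesin-1 to axonal cargo, had the largest difference, from 44.8 ± 4.35 to 9.53 ± 1.29 CPM (log2 fold change -2.23 ± 0.13, edgeR adjusted p = 1.884e-09). MADD, the adaptor that ties KIF1A and KIF1B to RAB3 vesicles, fell from 158.8 ± 4.90 to 118.4 ± 3.30 CPM. MAPK8IP1, the scaffold JIP1, fell 1.30-fold, and this call was lost without sgGPR91 replicate 2 or 3 (adjusted p = 0.0778 and 0.0574). MAP7D2, which recruits kinesin-1 to the proximal axon, rose 1.39-fold with an edgeR adjusted p of 0.042, a call lost with DESeq2 (0.0651) and in all single-library omissions other than that of sgcon replicate 2 (0.0543 to 0.131). So the neuronal heavy chains KIF5A and KIF5C rose while FEZ1 fell in the same libraries.

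Neuronal differentiation genes, listed beside the axonal motors, changed in both directions. Of 12, 6 were higher and 5 lower, beside 20.2 and 21.0% of all genes. The neurofilament genes NEFL and NEFM, which encode cargo of kinesin-1 transport, rose from 91.0 ± 12.2 to 434.8 ± 25.4 CPM and from 136.2 ± 11.3 to 579.5 ± 6.50 CPM. GAP43, a growth cone protein gene, rose 1.95-fold, while the doublecortin gene DCX, whose product guides microtubules and KIF1A, fell from 290.4 ± 14.4 to 158.9 ± 4.78 CPM. Their part in the changes of the axonal kinesins was not tested.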

How the data were processed

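The deposited table holds, per the file headers, raw read counts and FPKM for 6 libraries, with gene position, length and name. HISAT2, Bowtie2 and RSEM were used by the authors, per the submitters' processing notes; their roles, versions and the genome build are not given in these sources. The deposited FPKM equals the counts over listed length and the column's total. Of 19937 rows, 581 had no name and entered under their identifiers, as did rows of 7 repeated names.

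Counts were filtered with filterByExpr (minimum count 10, minimum total 15), scaled by TMM and tested with edgeR 4.0.16 (R 4.3.3), sgGPR91 against sgcon, without covariates. The call threshold was 0.05 after Benjamini-Hochberg adjustment. The SE is the absolute log2 fold change over the square root of F. The procedure was run on simulated counts with the same spread setting for every gene and few changed genes. These settings differ from the data, so the run does not show how the procedure performs on them. Alternatives used DESeq2 1.42.0, limma 3.58.1 on log2(FPKM + 1) and log2(FPKM + 0.1), other scaling and filters, a replicate block and omission of each library. Floors cover counting error only. Depth ran from 7070189 to 10252425 counts.

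Named genes are the members, in full where called, and up to 4 called genes with the largest fold change per partner list. Members and lists were chosen with earlier results of these data known. Sequences are RefSeq's; exon overlaps and lengths are from GENCODE version 29 (GRCh38), where all 61 identifiers were found.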

Additional observations from a re-analysis of the deposited data

How the results depend on the processing

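Of the 17 called motor genes, 12 kept their call and 17 their direction in all 13 alternatives; the 5 that lost a call in some (KIF3C, DYNLT2B, DYNLT3, KIFC2, KIFC3) and the 6 that gained one in some (KIF5B, KIF11, KIF15, KIF18B, KIF1A, DYNC1H1) are named above with the settings, apart from those under the replicate block. The number of called motors was 16 to 20 over the alternatives that kept all libraries and 13 to 19 when 1 library was left out. Called mitotic motors numbered 4 to 6, all lower, in every alternative, with 6 under the replicate block and without sgcon replicate 3. The medians ran from -0.22 to -0.15 for mitotic motors, 0.14 to 0.19 for axonal kinesins and 0.12 to 0.16 for dynein-1, and all genes called from 4108 to 5707. Scaling by library totals was added after seeing the data.

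Whether replicate numbers pair the libraries could not be settled. Deviations of same-numbered libraries correlated at 0.16, 0.02 and 0.10, and those of differently numbered libraries at -0.14 to 0.06. The sgGPR91 replicate 2 library correlated best with sgcon replicate 3. With the replicate number as a block, 20 motors and 5670 genes were called, against 17 and 5221 without it; the motors gained were KIF11, KIF15 and DYNC1H1 (adjusted p = 0.0462, 0.0395 and 0.035).

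Directions turned only among genes not called, each by leaving out 1 library. The lowest and highest log2 fold changes were -0.026 and 0.20 for KIF1A, -0.028 and 0.13 for KIF26A, -0.028 and 0.12 for KIF26B, -0.11 and 0.13 for KIF24, -0.015 and 0.073 for KIF14, -0.011 and 0.11 for KIF13B, -0.017 and 0.090 for KIF23 and -0.021 and 0.090 for DYNC2H1. They were -0.10 and 0.0029 for KIF1B, -0.073 and 0.056 for KIF13A, -0.16 and 0.0017 for DYNC2I1, and -0.45 and 0.15 for DYNLRB1. Low read numbers limit the 10 untested motors and those resting on few reads, DYNLRB1, DYNLT2B, KIF9 and KIF17. What set these low numbers was not tested.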
